A study of Mus musculus with 6 samples.

Results

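Eph receptors, ephrins, semaphorins, neuropilins and plexins are the cell surface and secreted proteins through which neighbouring cells attract, repel or sort from each other. All protein-coding genes of these families in the deposited transcript table were taken by their symbols, which gave 51 of the 29510 genes listed: 13 Eph receptors, 8 ephrins, 20 semaphorins, 2 neuropilins and 8 plexins. They were measured by RNA sequencing in 6 libraries of primary mouse chondrocytes, the cells that make cartilage, cultured without being driven to differentiate. The 3 control libraries carried floxed Nf2 alleles and no Cre (Nf2f/f, control 1 to 3). The 3 conditional knockout libraries carried the same floxed alleles with Prx1-Cre (Nf2f/f;Prx1-Cre, cKO 1 to 3). Prx1-Cre is a transgene active in limb bud mesenchyme, so cells of other origin in a culture would keep the gene. Nf2 encodes merlin, a membrane and cytoskeleton linker that acts upstream of the Hippo kinases. The series title names the limb, the thumb and Hedgehog signalling at the primary cilium as its interests. The sources used here give neither the age of the animals nor the origin of the replicates. The p-values set the difference between groups against the spread among these samples, and part of that spread may be technical. Whether a difference extends to other animals cannot be told from them.

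Eph receptors are receptor tyrosine kinases, and their ephrin ligands are themselves bound to the membrane, either by a lipid anchor (A type) or by a transmembrane segment (B type), so that signals can pass into both touching cells. Class 3 semaphorins are secreted and mostly act through receptors made of a neuropilin, which binds the ligand, and an A-type plexin, which passes the signal on to small GTPases and the actin cytoskeleton, while Sema3e can bind Plxnd1 directly. These families were first studied in growing axons. In the limb, Eph and ephrin genes take part in the sorting of mesenchymal cells and in innervation, and in the skeleton semaphorins and plexins act in the exchange between bone-forming and bone-resorbing cells.

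Levels are given, in the order of libraries 1 to 3 of each group, in FPKM, fragments scaled by the length of the transcript and the total of the library, summed over the transcripts of each gene. Being scaled by length, they can be compared between genes. Differences are log2 changes of FPKM + 0.5, cKO over control, tested with limma over the 14080 genes whose mean reached 0.5 FPKM, and p-values were adjusted by Benjamini-Hochberg over all of them. Errors are the standard deviation (SD, n = 3) for levels and the standard error (SE) for log2 changes. Between 12441 and 12697 genes and between 30 and 32 of the guidance genes reached 1 FPKM in a library. Log2 levels correlated, across genes that are not independent of each other, at 0.987 to 0.989 between libraries of a group and at 0.972 to 0.981 between groups. Nf2 itself was at 16.7, 16.6 and 14.1 FPKM in the control libraries and at 17.5, 15.6 and 18.1 FPKM in the cKO libraries. A sum over all transcripts does not check the deletion of part of the gene. Xist, the RNA of the inactive X chromosome, was low in control 2, at 0.525 FPKM, and in cKO 3, at 0.0288 FPKM, against 41.6 FPKM or more in the other libraries, so both groups hold libraries that differ in this sex-linked RNA.

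Class 3 semaphorins were the group in which most members were higher in cKO: Sema3a, Sema3b, Sema3c, Sema3e and Sema3f all rose. The receptor Epha2 and the ligand Efna5 rose as well, while the plexin Plxnb1 and the membrane-anchored semaphorin Sema7a fell. Of the 51 genes, 35 reached the expression filter, and 9 of those passed the test, 7 higher and 2 lower. That is 25.7% of the tested guidance genes, where 12.2% of all tested genes passed, 7.6% higher and 4.57% lower. The other 26 tested genes did not pass. Among tested class 3 semaphorins, 83.3% passed. Outside class 3, the shares were 16.7% of semaphorins, 12.5% of Eph receptors, 14.3% of ephrins, 16.7% of plexins and 0% of neuropilins. These lie nearer the share of all tested genes. The median log2 change was 0.15 over the 35 genes and 0.05 over all tested genes. In 18 of the 35 genes the values of the groups did not overlap, 13 higher and 5 lower (51.4%), which was so in 35.1% of all tested genes, 22.8% higher and 12.3% lower. The balance of directions over all genes depended on scaling: 62.5% of passing genes were higher as deposited, 45.5% after median-of-ratios scaling and 47.5% after quantile normalization. Leaving out control 2 left 2 guidance genes past the test, Sema3b higher and Plxnb1 lower, and these were also the only members that passed under each of the 18 alternatives tried.

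**Figure D1:**
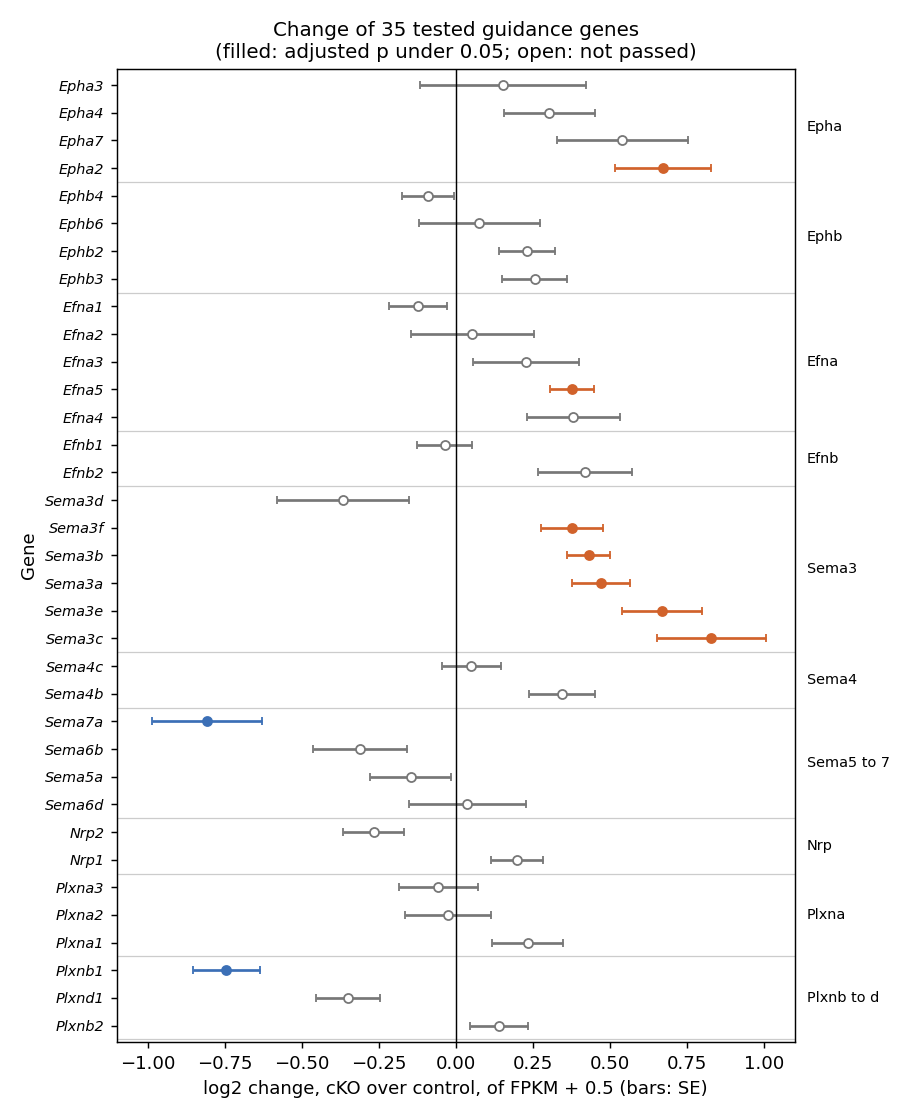
Log2 change of FPKM + 0.5 (x axis, cKO over control) for the 35 tested guidance genes, grouped by family, with bars for the standard error of the limma fit. Filled points mark the 9 genes with an adjusted p under 0.05; 5 of the 7 filled points on the higher side are class 3 semaphorins, and the 2 on the lower side are Sema7a and Plxnb1.

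**Figure D2:**
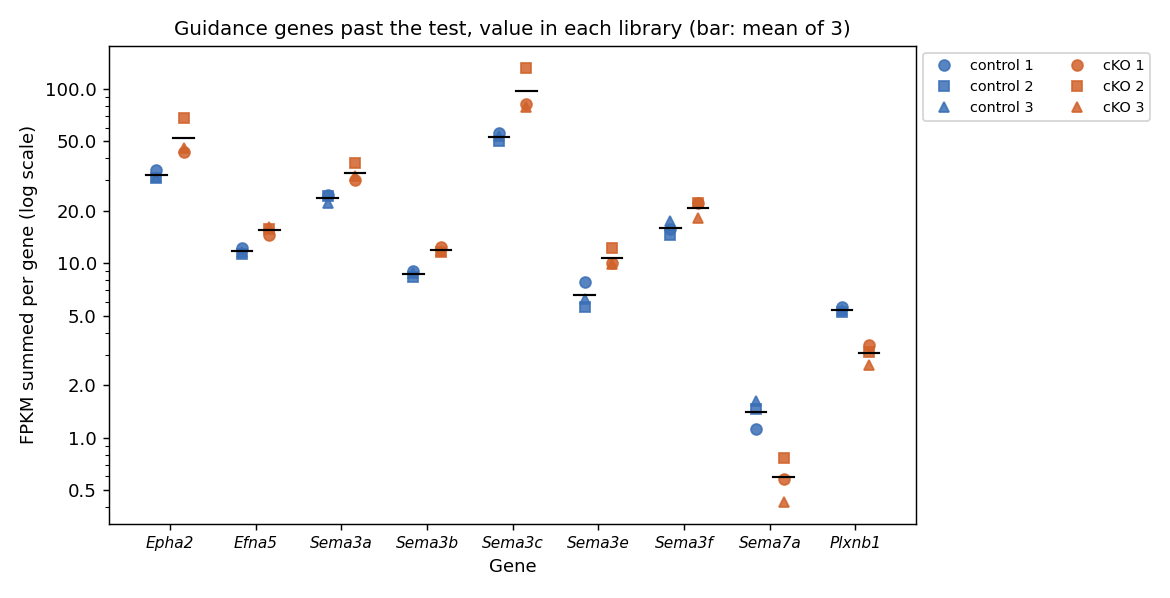
FPKM (y axis, log scale) in each of the 6 libraries for the 9 guidance genes past the test, with a bar at the mean of each group of 3 libraries. The groups do not overlap for any of the 9, and cKO 2 stands above the other cKO libraries for Epha2 and Sema3c.

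Among the Eph receptors, 1 of 8 tested genes passed (12.5%), near the 12.2% of all tested genes. That gene was Epha2, a receptor of epithelial and mesenchymal cells that binds several A-type ephrins. Epha2 (chr4:141301240-141329384) was at 34.1, 31.0 and 31.2 FPKM in the control libraries and at 43.5, 68.5 and 45.7 FPKM in the cKO libraries. Every cKO library was above every control library, and cKO 2 was 1.54 times the mean of the other cKO libraries. The mean rose from 32.1 ± 1.72 to 52.5 ± 13.8 FPKM, a log2 change of 0.67 (SE 0.156, limma adjusted p = 0.0294). Epha2 carried most of the A-type receptor signal, 87.5% of the summed FPKM in control and 89.2% in cKO. The gene passed in 12 of 18 alternatives. It was lost without control 1 (limma adjusted p = 0.0722), control 2 (0.106) or control 3 (0.0790). It was also lost with no expression filter (0.119), quantile normalization (0.0616) or no mean-variance trend (0.0635). Without cKO 2 the limma adjusted p was 0.00934, but the log2 change fell to 0.47, its lowest over the alternatives. The size of the change thus depended in part on that library.

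The other A-type receptors were expressed at low levels. Epha4, a receptor for both ephrin types, was at 1.93, 1.37 and 1.53 FPKM in the control libraries and at 2.19, 1.79 and 2.32 FPKM in the cKO libraries, with overlapping groups (a log2 change of 0.30 with SE 0.147, limma adjusted p = 0.213). Epha7 stood at 1.39 ± 0.361 and 2.27 ± 0.625 FPKM (a log2 change of 0.54, limma adjusted p = 0.133), and Epha3 at 0.897 ± 0.205 and 1.11 ± 0.551 FPKM (a log2 change of 0.15, limma adjusted p = 0.751). Both did not pass. Epha1, Epha5, Epha6 and Epha8 were under the filter, none above 0.579 FPKM in any library.

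None of the 4 tested B-type receptors passed. Ephb6, which lacks kinase activity, was the most abundant of them, at 27.3, 16.3 and 26.1 FPKM in the control libraries and 22.8, 28.8 and 20.8 FPKM in the cKO libraries. Its control libraries spanned the whole range of the cKO libraries apart from cKO 2 (a log2 change of 0.08 with SE 0.197, limma adjusted p = 0.834). Ephb4, the partner of Efnb2 in blood vessels, was at 8.26, 7.53 and 8.16 FPKM in the control libraries and 7.93, 7.65 and 6.87 FPKM in the cKO libraries, again with overlap (a log2 change of -0.09 with SE 0.0847, limma adjusted p = 0.532). Ephb2 at 4.22 ± 0.289 and 5.04 ± 0.238 FPKM and Ephb3 at 4.56 ± 0.438 and 5.54 ± 0.489 FPKM, receptors of B-type ephrins, had separate groups with higher cKO values, but their log2 changes of 0.23 and 0.26 missed the threshold (limma adjusted p = 0.135 and 0.147). Ephb1 did not exceed 0.0189 FPKM.

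For the ephrin ligands, 1 of 7 tested genes passed (14.3%), near the 12.2% of all tested genes. Efna5, a lipid-anchored ligand of A-type receptors (chr17:62604184-62881317), was at 12.3, 11.4 and 11.6 FPKM in the control libraries and at 14.5, 15.8 and 16.1 FPKM in the cKO libraries. The groups were narrow and did not overlap. Its mean rose from 11.8 ± 0.474 to 15.5 ± 0.828 FPKM (a log2 change of 0.38 with SE 0.0717, limma adjusted p = 0.0151), and it was lost in 1 of 18 alternatives, without control 2 (limma adjusted p = 0.0686).

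Efna1, a ligand that binds Epha2, was at 12.3, 10.8 and 13.6 FPKM in the control libraries and at 10.5, 11.6 and 11.3 FPKM in the cKO libraries. The groups overlapped (a log2 change of -0.12 with SE 0.0943, limma adjusted p = 0.433). In control, Efna1 and Efna5 made up near-equal parts of the summed A-type ligand signal, 45.1% and 43.6%, and in cKO they made up 36.4% and 50.6%. Efna2, Efna3 and Efna4, ligands of the same type, were each under 2.5 FPKM on average in both groups and did not pass, with log2 changes of 0.05, 0.23 and 0.38 (limma adjusted p = 0.887, 0.425 and 0.137). Efna3 and Efna4 had separate groups, higher in cKO. Efna1, Efna3 and Efna4 lie within 66.3 kb of chromosome 3 with no other coding gene between them.

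Efnb2, a transmembrane ligand known from arterial vessels, was at 12.8, 9.23 and 11.2 FPKM in the control libraries and at 12.8, 18.3 and 14.0 FPKM in the cKO libraries. All cKO values lay above the control values, control 1 and cKO 1 by a narrow margin, and the log2 change of 0.42 (SE 0.152) did not pass (limma adjusted p = 0.110). Efnb1, the X-linked B-type ligand whose loss disturbs skeletal patterning in mice, was at 13.2, 11.5 and 11.8 FPKM in the control libraries and at 11.6, 13.0 and 10.9 FPKM in the cKO libraries, with overlap (a log2 change of -0.04 with SE 0.0891, limma adjusted p = 0.826). Efnb3 stayed at or under 0.221 FPKM.

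The class 3 semaphorins were the most abundant of the semaphorins. Their summed level was 119, 109 and 114 FPKM in the control libraries and 163, 219 and 155 FPKM in the cKO libraries, or 114 ± 5.03 and 179 ± 34.9 FPKM, a ratio of 1.57. Every cKO library was above every control library, and cKO 2 was the highest. Without Sema3c, the largest contributor, the sum was 60.7 ± 2.28 and 81.2 ± 5.21 FPKM, a ratio of 1.34. The median log2 change of the 6 tested class 3 genes was 0.45, beside 0.05 over all tested genes. Of the 6, 5 passed (83.3%, beside 12.2% of all tested genes).

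**Figure D3:**
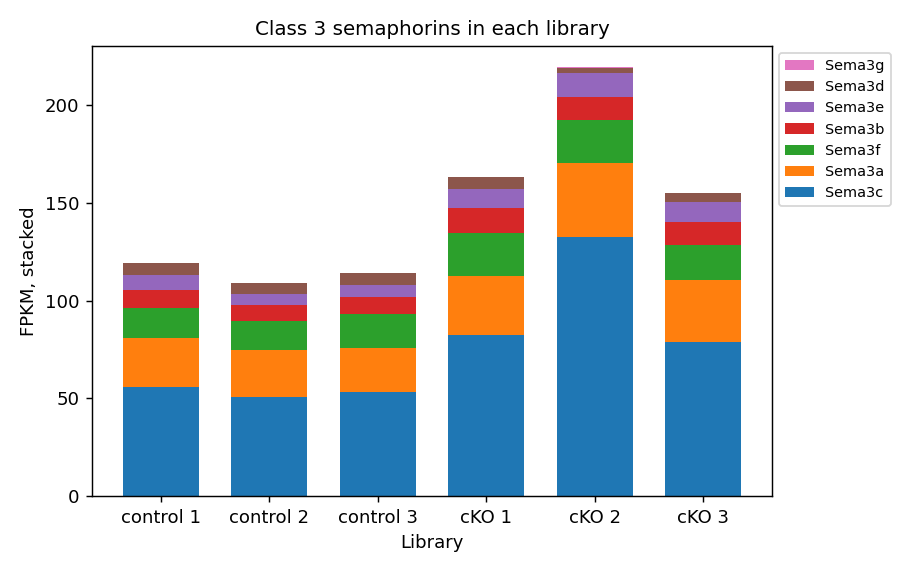
Summed FPKM of the 7 class 3 semaphorins (y axis, stacked by gene) in each of the 6 libraries. Bars reach 109 to 119 FPKM in control and 155 to 219 FPKM in cKO, and the Sema3c segment of cKO 2 is the largest.

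Sema3c, a ligand for neuropilin and plexin receptors that guides neural crest cells in the developing heart (chr5:17574281-17730268), was at 56.0, 50.5 and 53.4 FPKM in the control libraries and at 82.4, 132 and 78.6 FPKM in the cKO libraries. The groups were separate, and cKO 2 was 1.64 times the mean of the other cKO libraries. The mean rose from 53.3 ± 2.76 to 97.8 ± 30.0 FPKM (a log2 change of 0.83 with SE 0.177, limma adjusted p = 0.0225). Without cKO 2 the log2 change fell to 0.59, its lowest over the alternatives, with a limma adjusted p of 0.00314. The size of the change thus depended in part on that library. Without control 1, 2 or 3 the limma adjusted p was 0.0629, 0.0901 and 0.0615. The call was also lost with no expression filter (limma adjusted p = 0.102) or no mean-variance trend (0.0525).

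Sema3a, a ligand that repels axons through Nrp1 and is known to protect bone mass in mice (chr5:13125414-13602565), was at 24.7, 24.3 and 22.2 FPKM in the control libraries and at 30.0, 37.8 and 31.7 FPKM in the cKO libraries. Again no value of one group entered the range of the other. Its mean rose from 23.7 ± 1.35 to 33.2 ± 4.09 FPKM (a log2 change of 0.47 with SE 0.0939, limma adjusted p = 0.0180).

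Sema3e, the ligand of Plxnd1 (chr5:14025276-14256689), was at 7.82, 5.65 and 6.28 FPKM in the control libraries and at 10.1, 12.2 and 9.90 FPKM in the cKO libraries. The lowest cKO library was above the highest control library. The mean rose from 6.58 ± 1.12 to 10.7 ± 1.28 FPKM (a log2 change of 0.67 with SE 0.130, limma adjusted p = 0.0163).

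Sema3b, a ligand that signals through neuropilins (chr9:107597674-107609229), was at 9.01, 8.38 and 8.76 FPKM in the control libraries and at 12.4, 11.6 and 11.8 FPKM in the cKO libraries. Its libraries lay close together within each group and far apart between groups. The mean rose from 8.72 ± 0.317 to 11.9 ± 0.419 FPKM (a log2 change of 0.43 with SE 0.0704, limma adjusted p = 0.00874).

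Sema3f, which acts mainly through Nrp2 (chr9:107681500-107710475), was at 15.7, 14.6 and 17.5 FPKM in the control libraries and at 22.3, 22.2 and 18.2 FPKM in the cKO libraries. Here the gap was narrow, between control 3 and cKO 3. The mean rose from 15.9 ± 1.44 to 20.9 ± 2.34 FPKM (a log2 change of 0.38 with SE 0.101, limma adjusted p = 0.0471). This was the least stable of the 9 calls, passing in 8 of 18 alternatives, and scaling by median of ratios (limma adjusted p = 0.0767) or quantiles (0.0926) and leaving out any library but cKO 3 each ended the call.

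Sema3d, a ligand of neuropilin receptors, was the exception in the class, at 5.79, 5.51 and 5.78 FPKM in the control libraries and at 5.93, 2.79 and 4.72 FPKM in the cKO libraries. The cKO libraries differed more among themselves than from control, with cKO 2 the lowest (a log2 change of -0.37 with SE 0.214, limma adjusted p = 0.30). Sema3g did not exceed 0.172 FPKM. The 5 class 3 genes that rose had positive log2 changes under all 18 alternatives. Because their groups did not overlap, leaving out a library or changing the pseudocount, filter or variance model could not turn these signs. The number past the test ran from 1 to 5. Sema3b alone passed without control 2, where Sema3a had a limma adjusted p of 0.0634 and Sema3e of 0.0638. Sema3b was also alone without control 3 (0.0558 for Sema3a and 0.0516 for Sema3e) and with no expression filter. Sema3b and Sema3e passed without control 1.

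Sema3d, Sema3a, Sema3e and Sema3c lie on chromosome 5 in a stretch of 5.35 Mb, and Sema3b and Sema3f on chromosome 9 within 113 kb. In the first stretch 2 of 17 other coding genes were tested, Cacna2d1, a calcium channel subunit, and Hgf, the ligand of Met, and neither passed. In the second stretch 2 of 3 other coding genes were tested and both passed, where 12.2% of all tested genes did. Gnai2, a G protein subunit, rose and Slc38a3, an amino acid transporter, fell.

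Of the 9 members past the test, 7 have an entry in the set of RefSeq promoters used here, which lacks Sema3b and Sema3f. The 3 windows that hold a match to a motif searched and, for comparison, 1 of the 4 without a match (Sema3e) are shown, because Nf2 acts upstream of the TEAD partners of the Hippo pathway and several class 3 genes rose together. Each holds bases upstream of the RefSeq start site, taken from RefSeq (GRCm38.p6, the assembly of mm10), on the strand of the gene from 5′ to 3′, and 250 bases long unless a first exon of GENCODE M21 cut it short. Capitals mark matches to the motifs searched on both strands, GGAATG for TEAD and ACAATG for SOX factors. The windows are chr4:141300971-141301220 for Epha2, chr9:109095186-109095388 for Plxnb1 (203 bases), chr5:13396534-13396783 for Sema3a and chr5:14025026-14025275 for Sema3e, all on the plus strand.
Epha2: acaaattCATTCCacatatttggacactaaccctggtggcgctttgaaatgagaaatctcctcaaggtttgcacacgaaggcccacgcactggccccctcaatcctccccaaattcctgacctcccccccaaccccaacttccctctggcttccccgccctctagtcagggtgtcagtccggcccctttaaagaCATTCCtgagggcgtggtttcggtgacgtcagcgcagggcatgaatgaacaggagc
Plxnb1: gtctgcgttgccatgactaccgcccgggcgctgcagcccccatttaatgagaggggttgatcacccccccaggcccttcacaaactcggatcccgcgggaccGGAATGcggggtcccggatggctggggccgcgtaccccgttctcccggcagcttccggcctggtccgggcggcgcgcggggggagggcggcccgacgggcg
Sema3a: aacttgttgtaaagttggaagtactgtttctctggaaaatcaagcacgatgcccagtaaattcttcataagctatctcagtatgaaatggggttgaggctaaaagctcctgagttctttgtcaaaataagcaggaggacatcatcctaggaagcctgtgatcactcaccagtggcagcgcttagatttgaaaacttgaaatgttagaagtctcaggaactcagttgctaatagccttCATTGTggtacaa
Sema3e: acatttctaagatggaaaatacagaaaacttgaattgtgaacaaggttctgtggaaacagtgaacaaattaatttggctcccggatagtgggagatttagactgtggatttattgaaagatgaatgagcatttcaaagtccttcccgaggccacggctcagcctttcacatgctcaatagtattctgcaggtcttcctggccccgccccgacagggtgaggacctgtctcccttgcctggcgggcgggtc
The Epha2 window held 2 TEAD matches, the Plxnb1 window 1 and the Sema3a window 1 SOX match, and the Sema3e window held none. The windows of Efna5, Sema7a and Sema3c, which are not shown, held none either, and that of Sema3c lies wholly inside a GENCODE exon. Marked matches did not overlap. The start site used for Sema3a lies inside the gene as the deposited table gives it, so this window belongs to an internal start. Over 59 windows of 250 bases for 45 guidance genes, 7 held GGAATG, where 12.6% of 32851 RefSeq windows did, and 5 held ACAATG, where 10.7% did. ACCACCC, for GLI factors, was in 1 window (3.92% of all) and TGANTCA, for AP-1, in 3 (6.75% of all). A match of these letters is no evidence of binding. The member windows were richer in G and C than the rest, with a median of 64.4% against 52.4%.

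Outside class 3, 6 semaphorins were tested and 1 passed (16.7%, beside 12.2% of all tested genes). Sema7a, which is anchored by a lipid and signals through integrin beta 1 and Plxnc1 (chr9:57940112-57962865), was at 1.13, 1.47 and 1.63 FPKM in the control libraries and at 0.583, 0.763 and 0.429 FPKM in the cKO libraries. The groups did not overlap, and all values were low. Its mean fell from 1.41 ± 0.255 to 0.592 ± 0.167 FPKM (a log2 change of -0.81 with SE 0.180, limma adjusted p = 0.0259). The call was lost without control 2, control 3, cKO 1 or cKO 3 (limma adjusted p = 0.0976, 0.0732, 0.0638 and 0.0676), and over its alternatives it passed in 10 of 16. Of its receptors, Plxnc1 did not exceed 0.499 FPKM, while Itgb1 had means of 273 FPKM over control and 302 FPKM over cKO libraries (limma adjusted p = 0.141).

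Sema4b, a transmembrane semaphorin, was at 5.12, 4.78 and 5.11 FPKM in the control libraries and at 6.40, 7.47 and 5.70 FPKM in the cKO libraries. The groups were separate, but the log2 change of 0.35 (SE 0.107) did not pass (limma adjusted p = 0.0721). Sema4c, a ligand of Plxnb2, was at 3.74, 3.86 and 3.82 FPKM in the control libraries and at 4.23, 3.59 and 4.08 FPKM in the cKO libraries, with overlap (a log2 change of 0.05 with SE 0.0956, limma adjusted p = 0.774).

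Sema6b, a transmembrane ligand of A-type plexins, was at 1.55, 1.85 and 1.58 FPKM in the control libraries and at 1.51, 1.26 and 0.994 FPKM in the cKO libraries (a log2 change of -0.31 with SE 0.152, limma adjusted p = 0.216). Sema5a was at 1.38, 1.36 and 1.39 FPKM in the control libraries and at 1.25, 1.31 and 1.05 FPKM in the cKO libraries (a log2 change of -0.15 with SE 0.130, limma adjusted p = 0.50). For both, each cKO library was below each control library and neither passed. Sema6d, a ligand of Plxna1, stood at 0.718 ± 0.235 and 0.734 ± 0.0414 FPKM (limma adjusted p = 0.917). Sema4a, Sema4d, Sema4f, Sema4g, Sema5b, Sema6a and Sema6c were under the filter and did not exceed 0.663 FPKM.

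Neither neuropilin passed, and their log2 changes had opposite signs. Nrp2, the neuropilin preferred by Sema3f, was the most abundant guidance gene in control, at 66.1, 68.7 and 69.8 FPKM in the control libraries and at 66.5, 50.4 and 54.2 FPKM in the cKO libraries. The value of cKO 1 lay within the control range and the other cKO values below it (a log2 change of -0.27 with SE 0.0988, limma adjusted p = 0.118). Nrp1, the neuropilin preferred by Sema3a and a co-receptor for VEGF, was at 27.4, 28.7 and 29.4 FPKM in the control libraries and at 33.9, 35.6 and 29.1 FPKM in the cKO libraries. Only cKO 3 lay within the control range (a log2 change of 0.20 with SE 0.0835, limma adjusted p = 0.157). The share of Nrp2 in the summed neuropilin signal was 70.5 ± 0.18% in control and 63.3 ± 4.11% in cKO. Nrp2 passed in 1 of 18 alternatives, without cKO 1 (limma adjusted p = 0.0214), and Nrp1 in 1 of 18, without cKO 3 (0.0454). In both cases the library left out was the only cKO library within the control range, so its removal set the groups apart.

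Of 6 tested plexins, Plxnb1 alone passed (16.7%, beside 12.2% of all tested genes). Plxnb1, a receptor of Sema4d that is known to act in osteoblasts in mice (chr9:109095389-109119917), was at 5.62, 5.23 and 5.41 FPKM in the control libraries and at 3.42, 3.09 and 2.62 FPKM in the cKO libraries. The groups were far apart. Its mean fell from 5.42 ± 0.199 to 3.04 ± 0.401 FPKM (a log2 change of -0.75 with SE 0.108, limma adjusted p = 0.00557), the smallest adjusted p among the guidance genes. Sema4d, its ligand, was under the filter.

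Plxnb2, a receptor of Sema4c, was the most abundant plexin, at 65.7, 61.0 and 64.3 FPKM in the control libraries and at 72.0, 78.9 and 60.9 FPKM in the cKO libraries. The cKO range enclosed the control range (a log2 change of 0.14 with SE 0.0938, limma adjusted p = 0.364). Plxnd1, the receptor of Sema3e, was at 4.98, 4.89 and 5.32 FPKM in the control libraries and at 4.36, 3.43 and 3.85 FPKM in the cKO libraries. Its groups were separate, and the log2 change of -0.35 (SE 0.104) did not pass (limma adjusted p = 0.0650), except after median-of-ratios scaling (0.0455).

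Plxna1, a signalling partner of neuropilins, was at 24.7, 23.5 and 25.3 FPKM in the control libraries and at 28.8, 34.4 and 24.3 FPKM in the cKO libraries (a log2 change of 0.23 with SE 0.115, limma adjusted p = 0.219). Plxna2 was at 5.09, 4.88 and 5.24 FPKM in the control libraries and at 5.09, 6.09 and 3.95 FPKM in the cKO libraries (a log2 change of -0.02 with SE 0.140, limma adjusted p = 0.930). Groups overlapped for both. Plxna3 stood at 4.36 ± 0.353 and 4.21 ± 0.697 FPKM (a log2 change of -0.06, limma adjusted p = 0.814), and Plxna4 did not exceed 0.220 FPKM.

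**Figure D4:**
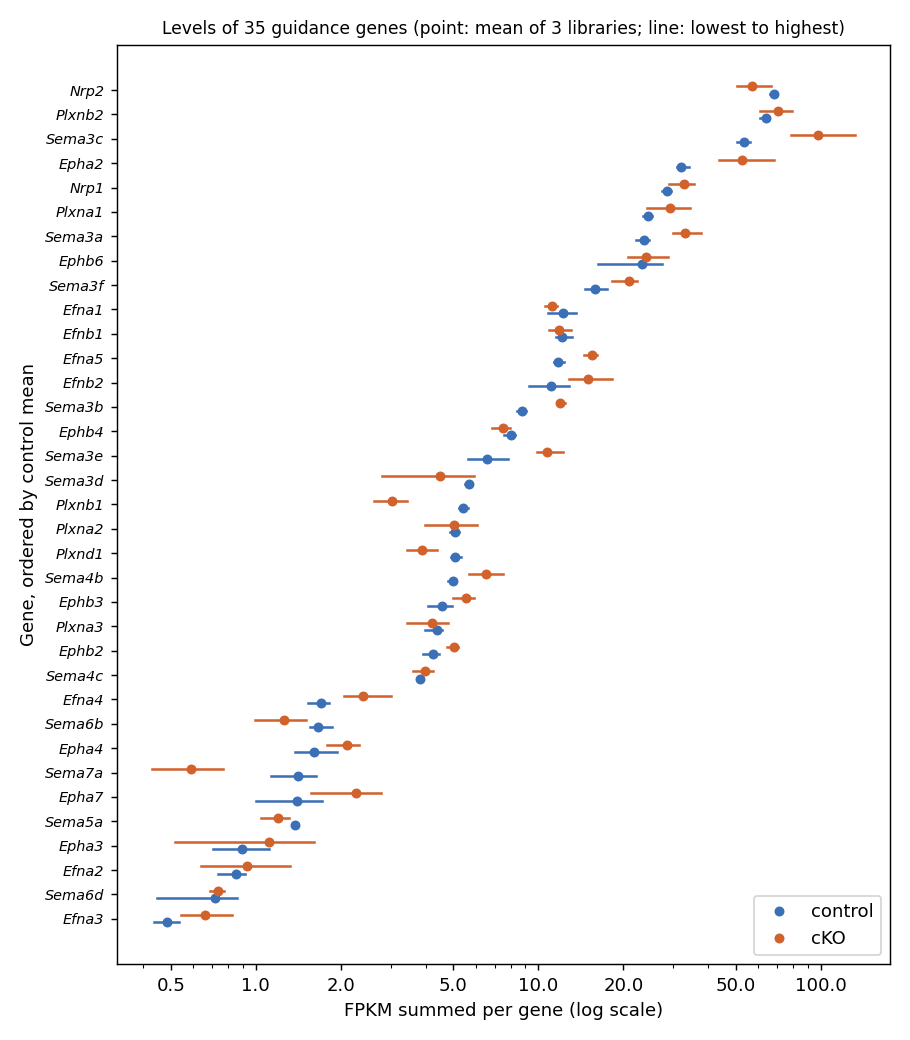
Level of the 35 tested guidance genes in FPKM (x axis, log scale), ordered by the control mean, with points for the mean of 3 libraries and lines from the lowest to the highest library. Nrp2, Plxnb2, Sema3c and Epha2 lead in control, and Sema3c leads in cKO.

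In control, the ranges of Nrp2 (66.1 to 69.8 FPKM) and Plxnb2 (61.0 to 65.7 FPKM) lay above that of Sema3c (50.5 to 56.0 FPKM). In cKO the lowest Sema3c library, 78.6 FPKM, was above each Nrp2 library, and the ranges of Sema3c and Plxnb2 met at the highest Plxnb2 library of 78.9 FPKM.

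The 219 transcripts of the guidance genes include 111 that code for protein and 72 with a retained intron. Taken singly, 54 transcripts reached the filter and 0 passed limma, with 12 at an unadjusted p under 0.05, 7 higher and 5 lower. Among all 27761 transcripts tested, 169 passed (0.609%) and 4039 had an unadjusted p under 0.05. The lowest limma adjusted p was 0.0732, for the main Plxnb1 transcript ENSMUST00000072093. In the authors' deposited table, 12 guidance transcripts of 10 genes have a q-value under 0.05, 8 higher and 4 lower, where 3.81% of all transcripts do. Of those 10 genes, 7 passed limma when summed over transcripts. Sema3b and Sema3f, which also passed limma as genes, have no transcript among those 12. Plxnb1 leads the 12 with a fold of 0.555 and q = 8.80e-15 for ENSMUST00000072093 in the authors' deposited table. Among those 12, the authors' deposited table also gives Sema3e ENSMUST00000130116, a retained-intron transcript, which was at 0, 0.00969 and 0 FPKM in the control libraries and at 0.907, 0.469 and 0.0817 FPKM in the cKO libraries. Coding transcripts of Nrp2 and Epha7, genes that did not pass limma, are there too. In the authors' deposited table Nrp2 ENSMUST00000102822 has a fold of 0.798 (q = 0.0256) and Epha7 ENSMUST00000029964 a fold of 1.73 (q = 0.0283).

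For most passing genes a single transcript held the signal: its share was 98.2% in control and 99.3% in cKO for Epha2, 97.2% and 96.9% for Efna5, and 98.4% and 99.3% for Sema3c. The share of a transcript differed between groups by at least 15 percentage points for 17 transcripts, most of them of genes under the filter or with shares that varied widely among libraries. For Sema3b, ENSMUST00000102532 took 1.79, 28.1 and 1.84% in the control libraries and 37.3, 69.2 and 2.58% in the cKO libraries, so libraries of one group differed as much as the groups did. Ephb2 ENSMUST00000105845 took 48.3, 37.0 and 43.6% in control and 38.7, 19.8 and 20.2% in cKO. Sema4c ENSMUST00000114991 took 0, 89.1 and 21.7% in control and 17.6, 0 and 0% in cKO.

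Epha4 differed in kind. Its protein-coding transcripts held 51.1, 51.7 and 50.8% of the signal in the control libraries and 21.5, 19.5 and 6.62% in the cKO libraries. The groups were wide apart. ENSMUST00000188952, annotated as a target of nonsense-mediated decay, had a mean of 0.737 ± 0.105 FPKM over the control libraries and 1.77 ± 0.366 FPKM over the cKO libraries, and the coding ENSMUST00000027451 at 0.667 ± 0.143 and 0.287 ± 0.148 FPKM. Each of these transcripts has 18 exons, 16 of them identical, with all 17 junctions shared, and they differ by 9 bases at the 5′ end and 4 at the 3′ end. The assignment of reads between them is therefore uncertain. With coding transcripts alone the log2 change of Epha4 was -0.70 (limma adjusted p = 0.0602), the opposite sign to the sum over all transcripts. In the authors' deposited table ENSMUST00000188952 has a fold of 2.41 with q = 2.69e-05, and the coding ENSMUST00000188797 a fold of 0.146 with q = 0.00115.

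Partners of these families were followed in 5 lists of 117 genes, of which 111 are in the table and 89 were tested. Of these, 10 rose and 3 fell, or 14.6%, a share near the 12.2% of all tested genes (7.6% higher and 4.57% lower), so the genes below are a description of single members and not a result about the lists. In the list of netrin and RGM genes, 2 of 9 tested genes fell: Ntn1, a secreted guidance cue, from 5.98 ± 0.206 to 2.95 ± 0.453 FPKM (a log2 change of -0.92, limma adjusted p = 0.00266), and Rgma, a ligand of neogenin and BMP co-receptor, from 6.21 ± 0.692 to 3.47 ± 0.491 FPKM (a log2 change of -0.76, limma adjusted p = 0.00873). Neo1, which encodes neogenin, was at a mean of 55.9 and 50.9 FPKM and did not pass (limma adjusted p = 0.186).

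Among 9 tested Slit and Robo genes, 3 rose. Slit2, a secreted repellent, went from 3.88 ± 0.749 to 9.05 ± 3.65 FPKM (a log2 change of 1.07, limma adjusted p = 0.0269). Flrt2, an adhesion protein that binds Unc5 receptors, went from 12.2 ± 1.01 to 26.4 ± 4.94 FPKM (a log2 change of 1.06, limma adjusted p = 0.00309). Flrt3, its relative, followed with 0.51 on the same scale (limma adjusted p = 0.0483). Of the VEGF family, whose members share neuropilins with the semaphorins, 1 of 7 passed: Pgf rose from 0.529 ± 0.108 to 1.48 ± 0.248 FPKM (a log2 change of 0.94, limma adjusted p = 0.0113).

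Among co-receptors and effectors of plexins and semaphorins, 4 of 31 tested genes (12.9%) rose and 0 fell at the limma threshold, beside 12.2% passing over all genes. Mical2, an enzyme that oxidizes actin, went from 6.19 ± 0.470 to 10.3 ± 0.116 FPKM (a log2 change of 0.69, limma adjusted p = 0.00213). Rnd3, a small GTPase that acts on the actin cytoskeleton, went from 44.9 ± 4.48 to 67.5 ± 4.06 FPKM (a log2 change of 0.59, limma adjusted p = 0.00514). Rras2, a Ras-type GTPase, and Nrcam, an adhesion protein of semaphorin receptor complexes, had log2 changes of 0.54 and 0.81 (limma adjusted p = 0.0320 and 0.0157). Among effectors and proteases of Eph receptors and ephrins, 3 of 33 tested genes passed (9.09%), under that share, and 2 of them rose, Pik3r1, a subunit of a lipid kinase (a log2 change of 0.44, limma adjusted p = 0.0183), and Ryk, a Wnt receptor that also binds Eph receptors (0.29, limma adjusted p = 0.0224). Vav3, a signalling adaptor and exchange factor, fell in that list (a log2 change of -0.70, limma adjusted p = 0.0430). Ntn1, Rgma, Flrt2, Mical2 and Rnd3 passed under all 18 alternatives. Without control 2 the other 8 genes of these lists were lost apart from Pgf, and Flrt3, Rras2 and Vav3 were lost in most alternatives.

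**Figure D5:**
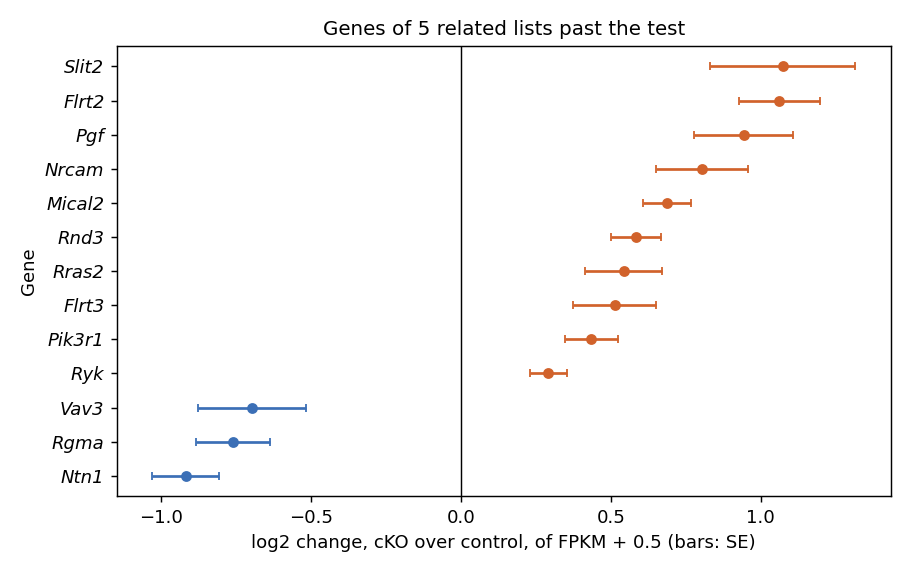
Log2 change of FPKM + 0.5 (x axis, cKO over control) for the 13 genes of 5 related lists that passed the test, with bars for the standard error. The 10 higher genes run from 0.29 for Ryk to 1.07 for Slit2, and the 3 lower genes are Vav3, Rgma and Ntn1.

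Markers of cell types also differed between the groups. All 10 chondrocyte markers fell, with a summed level of 4650 to 5754 FPKM in control and 2062 to 2578 FPKM in cKO, lowest in cKO 2. Most of that sum was Col2a1, at 1672 FPKM in cKO 2. Acan, at 70.0, 72.5 and 63.9 FPKM in the cKO libraries, was instead highest in cKO 2. Of 5 tested fibroblast and perichondrium markers 3 fell, with sums of 560 to 612 and 239 to 380 FPKM, and cKO 2 was again the lowest. Fewer cells of a type and less RNA per cell cannot be told apart in bulk samples, and the part of these markers in the guidance gene results was not tested. Of 8 endothelial markers 6 are in the table, and none of these reached 0.5 FPKM in any library, so the vessel-associated genes Plxnd1, Ephb4 and Efnb2 were measured where those markers were near 0. Macrophage markers summed to at most 2.01 FPKM, glial markers to at most 1.72 FPKM and erythroid markers to at most 2.55 FPKM. Neuronal markers summed to 7.36 to 9.20 FPKM in control and 9.51 to 11.9 FPKM in cKO, skeletal muscle markers to 4.44 to 5.81 and 8.83 to 10.99 FPKM, and epidermal markers to 2.24 to 2.87 and 2.77 to 4.10 FPKM. Smooth muscle and pericyte markers summed to 190 to 243 and 236 to 291 FPKM, adipocyte markers to 45.4 to 51.0 and 52.2 to 87.2 FPKM, and osteoclast markers, carried by Acp5, to 8.61 to 9.53 and 5.53 to 7.96 FPKM. Single markers passed in several of these lists. Stmn2 rose among 2 tested neuronal markers (a log2 change of 1.32, limma adjusted p = 0.0354), Acta1 and Des as both tested skeletal muscle markers (0.93 and 0.88, limma adjusted p = 0.0297 and 0.00266), and Trp63 as the 1 tested epidermal marker (0.67, limma adjusted p = 0.0254). Of 3 tested adipocyte markers, Pparg rose from 9.45 ± 0.612 to 21.7 ± 4.96 FPKM (limma adjusted p = 0.00333) and Lpl from 8.07 ± 0.834 to 17.8 ± 4.01 FPKM (limma adjusted p = 0.00510), while Fabp4, at 31.0 ± 1.73 and 26.6 ± 10.7 FPKM, did not pass, and Adipoq did not exceed 0.108 FPKM. Acp5 fell (a log2 change of -0.49, limma adjusted p = 0.0468). The 3 tested smooth muscle and pericyte markers Acta2, Cnn1 and Cspg4 missed the threshold, with limma adjusted p = 0.0797, 0.888 and 0.106. The part of these markers was not tested either.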

How the data were processed

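RNA of 3 control and 3 cKO libraries was extracted with Trizol and made into libraries with a dUTP step, which keeps strand information, per the labels' protocols. Whether counting used strand is not stated. The submitters' processing notes name mm10; the aligner and the program behind the levels are, for the sources used here, not stated. The deposited FPKM, computed by the authors per Ensembl transcript and library, were summed per gene symbol. The authors' deposited ratio (fold), log2 fold and p-value or q-value per transcript were only copied. Depth is unknown: at best 36.3% of low values lay within 2% of a whole step of 1 read, so whole reads were not recovered and no count test was run.

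Genes or transcripts with a mean of at least 0.5 FPKM were tested on log2(FPKM + 0.5), a pseudocount that understates changes of low genes, by limma 3.58.1 in R 4.3.3, using a trend of variance on level, 2-sided, group only, Benjamini-Hochberg adjusted, at 0.05. The script was tested on simulated data. Tables and plots used Python 3.11.15, pandas 2.3.3, NumPy 2.4.6 and Matplotlib 3.10.9. Coordinates are 1-based on mm10; 45 of the 51 members have the same start and end in GENCODE M21. Values in each library are given for members past the test and the 2 most abundant of each family, other members by mean or range, up to 4 passing genes per related list, and transcripts past the test or with a share shifted by 15 points. Members and lists were chosen with earlier results of these data known. The values of Sema3d in each library, Neo1, Itgb1, and the neighbours Cacna2d1, Hgf, Gnai2 and Slc38a3 lie outside that rule and were chosen after their values were seen.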

Additional observations from a re-analysis of the deposited data

How the results depend on the processing

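The 18 alternatives were pseudocounts of 0.1 and 1 FPKM, filters at none, 1 and 2 FPKM, median-of-ratios scaling, quantile normalization, no mean-variance trend, robust variance moderation, Xist as a covariate, the replicate number as a block, coding transcripts only, and each library left out. With 7 members higher and 2 lower, 10 related genes higher and 3 lower and 1713 of all genes passing as reported, no filter gave 2 and 1 members, 3 related genes higher and 662 genes. Filters at 1 and 2 FPKM each gave 1 member lower, since Sema7a was then not tested. No trend gave 4 members higher, 6 related genes higher and 1134 genes, and quantile normalization gave 5 related genes lower. Samples share only a number: deviations from group means of same-numbered libraries correlated at -0.0157, -0.0559 and -0.0463, and no sample correlated best with its own number. The replicate block gave 6 members higher, 1 lower and 1097 genes, with adjusted p = 0.103 for Sema3f and 0.0585 for Sema7a by limma. Leaving out 1 library gave 1 to 9 members higher and 1 to 2 lower, 4 to 10 related genes higher and 2 to 4 lower, 537 to 1324 genes, and 0 member transcripts each way, as in the other fits. Signs turned only for members that did not pass. The groups of the passing members did not overlap, so leaving out a library could not turn their signs. Leaving out 1 library, log2 changes ran from -0.13 (without cKO 3) to 0.20 for Efna2, also -0.011 without control 2; from -0.10 to 0.021 (without control 1) for Efnb1, also 0.017 without cKO 3; from -0.070 (without cKO 1) to 0.45 for Epha3; from -0.16 (without control 2) to 0.21 for Ephb6, also -0.054 without cKO 2; from -0.16 to 0.12 (without cKO 3) for Plxna2; from -0.14 to 0.069 (without cKO 3) for Plxna3; and from -0.13 (without control 1) to 0.12 for Sema6d. Quantile normalization gave -0.0021 for Ephb6, median-of-ratios scaling -0.0044 for Sema4c, and coding transcripts -0.051 for Sema4c and -0.70 for Epha4. The cause was not tested. Single-gene results otherwise kept direction and side of the threshold in 743 fits, lost the call in 86 and gained it in 4.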
